A study of Homo sapiens with 6 samples.

Results

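The oligoadenylate synthetases are the 4 human genes OAS1, OAS2, OAS3 and OASL, and all 4 were found by name among the 48162 genes of the count table. They were chosen by their counts in these same libraries: the interferon-induced genes, this family among them, stood high on 1 collection date. In the main fit OAS3 had the highest fitted difference of the family between the mimics, which some other fits did not give. The difference of 22 August from the later dates and the difference between the mimics are therefore given below for the 4 genes as a description, without a test. Tests are given for other listed genes, and for the family on 18 September against 5 September, the date contrast that the choice did not name.

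Oligoadenylate synthetases are sensors of double-stranded RNA in the cytosol. On binding it, they join ATP into short chains with 2′-5′ linkages, called 2-5A, which act as a messenger of the antiviral response. Interferon induces the synthetases. OAS1 is the short catalytic form, OAS2 a tandem form, and OAS3 the longest form, which favours long double-stranded RNA. OASL has lost the enzymatic activity in humans, carries ubiquitin-like domains and enhances signalling by the RNA sensor RIG-I.

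HEK293, an established line from human embryonic kidney, was transfected with Flag-tagged Ago2 together with a microRNA-219 mimic (3 libraries) or a negative control mimic (3 libraries). Ago2 holds small RNAs and their targets in the silencing complex. It was precipitated through its tag, and the RNA that came down with it was sequenced. Each group has 1 library from 22 August, 1 from 5 September and 1 from 18 September, and the tagged Ago2 was common to all 6. A level below is thus an amount in an Ago2 precipitate; amount in the cell and binding to Ago2 cannot be told apart, since input RNA is not analysed here. Nor can fewer cells with the transcript be told apart from less transcript per cell. Which of the mature strands was transfected is not stated. The 2 mature strands of the microRNA-219a-2 gene named in the series' title, from RefSeq (GRCh38.p14, minus strand), are shown because they are the candidates for the transfected sequence, with the seed (bases 2 to 8) in capitals. They lie at chr9:128392676-128392696 (5p) and chr9:128392632-128392653 (3p), and their seeds differ.
hsa-miR-219a-5p: uGAUUGUCcaaacgcaauucu
hsa-miR-219a-2-3p: aGAAUUGUggcuggacaucugu

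The libraries held from 20233819 to 34408699 counts. AGO2, the transfected gene, took 12.6 to 16.7% of counts with the mimic and 10.6 to 18.0% with the control. The 7 HEK293 markers were detected in every library. The 7 leukocyte markers summed to between 1.12 and 1.55 CPM per library, with FCGR3A at 0 counts in all 6 libraries and PTPRC (CD45) at 0 in 5 of them. Intestinal, plasma cell and red cell transcripts (IGHA1, PIGR, FABP1, HBB) summed to 0.104, 8.52 and 13.9 CPM in the mimic libraries and to 31.1, 689 and 21.5 CPM in the control libraries, from 22 August to 18 September. The sum of 5 September in the control library was nearly all HBB (23319 counts). IGHA1, PIGR and FABP1 were higher in the control library on 22 August and 18 September and higher in the mimic library on 5 September. Their part in the differences between the mimics was not tested.

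In hg19 coordinates OAS1 (ENSG00000089127, chr12:113344582-113369990), OAS3 (ENSG00000111331, chr12:113376157-113411054) and OAS2 (ENSG00000111335, chr12:113416200-113449528) lie in this order on the plus strand. The 3 genes span 104947 bases, with 6166 bases between OAS1 and OAS3 and 5145 bases between OAS3 and OAS2. OASL (ENSG00000135114, chr12:121458095-121477045, minus strand) lies 8008566 bases further along the same chromosome. The antisense gene RP1-71H24.1 overlaps OAS1, OAS3 and OAS2 and had 0 counts in all libraries; whether the counting used strand is not given in the sources used here. The gene models behind the counts measure 1990 bases for OAS1, 4734 for OAS2, 6719 for OAS3 and 2085 for OASL. All 4 genes passed the filter on low counts.

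OAS1 had 506, 37 and 21 counts in the mimic libraries of 22 August, 5 September and 18 September, against 431, 12 and 32 counts in the control libraries of those dates. In TMM-scaled CPM (counts scaled to library size) these were 17.5, 1.30 and 0.971 with the mimic, against 17.1, 0.354 and 1.52 with the control. The libraries of 22 August stood above all 4 later ones with either mimic, and the control library of 5 September was the lowest, where 12 counts leave an exact 95% Poisson interval of 0.183 to 0.619 CPM. Such intervals cover counting error only.

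OAS2 had 559, 27 and 25 counts with the mimic, against 317, 25 and 15 with the control, in the same date order. Its levels were 19.3, 0.951 and 1.16 CPM with the mimic, against 12.6, 0.738 and 0.712 CPM with the control. Both libraries of 22 August were high, no later library exceeded 1.16 CPM, and the mimic library was the higher of the pair on each date.

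OAS3 had the most counts of the family in every library, with 7461, 932 and 478 counts with the mimic, against 3355, 818 and 396 with the control. Its levels were 257, 32.8 and 22.1 CPM with the mimic, against 133, 24.2 and 18.8 CPM with the control. Again the 2 libraries of 22 August did not overlap the later ones. The mimic library was above the control library on each date, by most on 22 August.

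OASL had 240, 49 and 31 counts with the mimic, against 176, 30 and 24 with the control. Its levels were 8.28, 1.73 and 1.43 CPM with the mimic, against 6.98, 0.886 and 1.14 CPM with the control. It had the fewest counts of the family on 22 August in both groups. On the later dates it overlapped OAS1 and OAS2 in CPM.

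**Figure D1:**
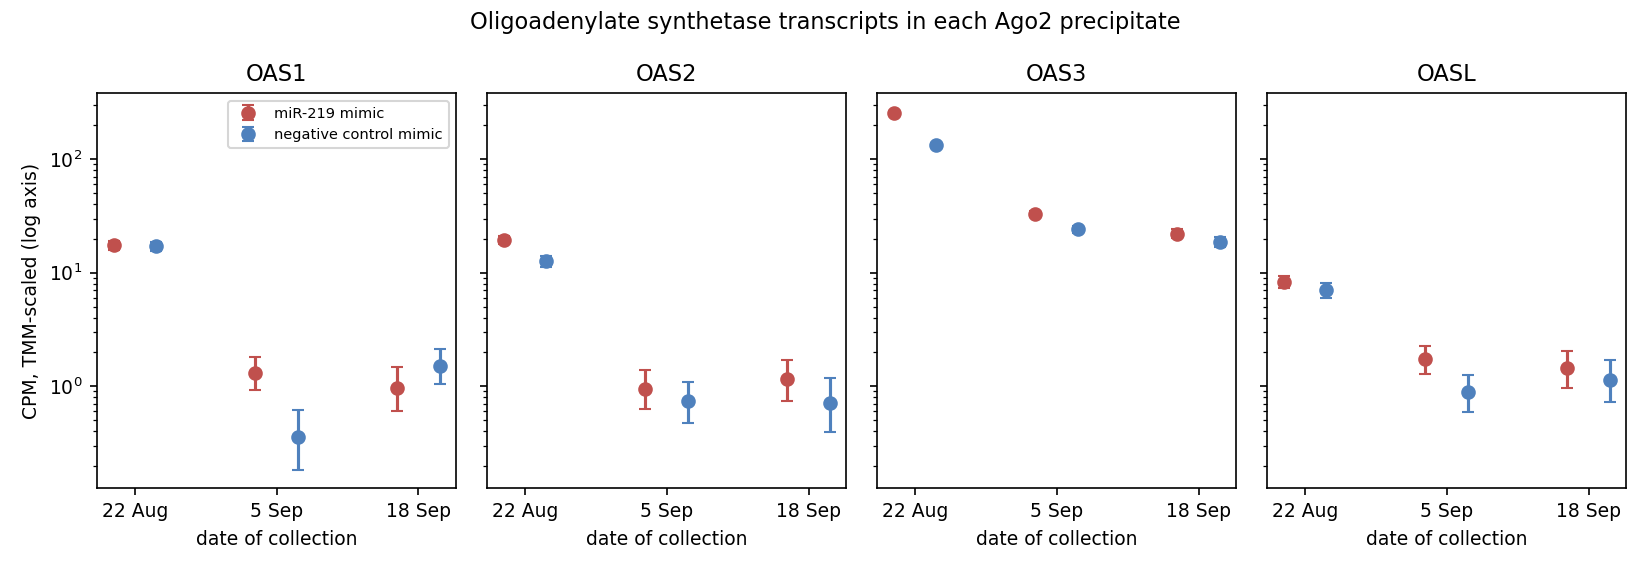
TMM-scaled CPM (log axis) of each oligoadenylate synthetase transcript by collection date, with 1 point per library and bars for the exact 95% Poisson interval. For each of the 4 genes both points of 22 August lie above all points of 5 and 18 September, a pattern that the choice of members used. OAS3 spans 18.8 to 257 CPM and OAS1 0.354 to 17.5 CPM.

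The difference of 22 August from the later dates was unequal within the family. OAS2 on 22 August had 18.3 times its mean of the later dates with the mimic and 17.3 times with the control, and OAS1 had 15.4 and 18.3 times. OAS3 had 9.37 times its later mean with the mimic and 6.20 times with the control, and OASL 5.24 and 6.90 times. The fitted log2 differences, 22 August minus the mean of the later dates, were 4.15 for OAS2 (SE 0.17), 4.12 for OAS1 (SE 0.34), 2.96 for OAS3 (SE 0.15) and 2.58 for OASL (SE 0.21), from edgeR with date and mimic as terms. OAS2 and OAS1 differed from each other by less than their standard errors, and so were not ordered. Of 16689 tested genes, 55 (0.33%) passed as higher on 22 August at an adjusted p under 0.05 by edgeR's quasi-likelihood test. All 4 synthetases are among the 55, a count that the choice of members used and from which nothing is read. The same holds for the lack of overlap between 22 August and the later dates in all 4. Non-overlap, in either direction, was also found for 25 of 26 listed interferon effectors and 1 of 7 HEK293 markers. Of the listed neighbouring genes it was found for 2 of 8 beside the cluster and 1 of 9 beside OASL. Among the other lists it was found for 5 of 8 interferons and chemokines, 1 of 7 leukocyte markers and 0 of 4 intestinal or blood markers. Its share over all genes was not computed, so nothing is read from any of these counts. Mitochondrially encoded transcripts also took more of the counts on 22 August, 13.3% with the mimic and 8.39% with the control, against 5.66 to 7.27% on the later dates. Their part in the family's difference was not tested, and with those genes and AGO2 left out of the table the fitted OAS3 difference was 2.97.

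None of 4 listed genes linked to 2-5A or related to the synthetases passed the test by date. ABCE1, a ribosome recycling factor, had a fitted log2 difference of −0.04 on 22 August (SE 0.11, edgeR adjusted p = 0.973), and PDE12, a phosphodiesterase that degrades 2-5A, had 0.19 (SE 0.11). AKAP7, which has a 2-5A-degrading phosphodiesterase domain known from mouse, had −0.05 (SE 0.17). MB21D1, the structurally related DNA sensor cGAS, had −0.38 (SE 0.33) on 10 to 35 counts per library. Of these 4 genes 0 passed by edgeR, DESeq2 or limma-voom, and 0 had an unadjusted p under 0.05 by edgeR, where PDE12 had the lowest at 0.126. The median over the 4 synthetases was 3.54, beside 0.0053 for all tested genes.

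Most of the other listed interferon-induced genes were also high on 22 August. Of 26 effector genes of the interferon response, a list written with earlier results of these data known, 19 rose on 22 August and 0 fell, with a median log2 difference of 2.79. XAF1, among the 19, had at most 0.139 CPM on the later dates and passed the filter on low counts only through the libraries of 22 August. MX2, also among the 19, had 0.141 to 0.832 CPM on the later dates, and SAMD9L, which was not called, 0.0886 to 0.423. MX2 and SAMD9L likewise needed the libraries of 22 August to pass that filter. Nothing is read from the calls of XAF1 and MX2, and the median includes all of these genes. CMPK2, a mitochondrial nucleotide kinase, had 3.87 (SE 0.15, edgeR adjusted p = 0.000186), MX1, an antiviral GTPase, 3.20, IFIT2, which restrains translation of foreign RNA, 2.85, and DDX58, the RNA sensor RIG-I, 2.59. The list ran from 0.17 to 4.44, so the synthetases lay inside its range. Among genes of interferon signalling, the transcription factor IRF7 (1.84) rose, as did USP18 (1.003), a protease that removes ISG15 and restrains interferon receptor signalling. IRF9, a transcription factor of the interferon response, had 1.36 (SE 0.28, adjusted p = 0.231). JAK1, a kinase of the interferon receptors, had 0.15 (SE 0.10, adjusted p = 0.857).

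Interferons themselves were near the limit of detection. IFNB1 had 8, 4 and 1 counts with the mimic, against 5, 1 and 3 with the control, in date order. IFNL1 had 5, 3 and 0 counts with the mimic, against 3, 1 and 0 with the control. IFNG had 0 counts in all 6 libraries, which allows up to 3 counts in each. IFNA1 had 1 count in 1 library. IFNL2 had 4 counts and IFNL3 7 in the mimic library of 22 August, against 0 and 3 in the control library of that date, and both were at 0 on the later dates. The interferon-induced chemokine CXCL10 had 14 counts in the mimic library of 22 August and 2 in the control library, and 0 on the later dates. These genes, the untested ones of the list, were named after their values were seen. CCL5, another interferon-induced chemokine, had 55, 9 and 7 counts with the mimic, against 34, 16 and 9 with the control, with a log2 difference of 2.06 on 22 August (SE 0.35, edgeR adjusted p = 0.115).

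Genes that neighbour the synthetases on chromosome 12 were set beside them. Of 7 tested neighbours of the OAS1, OAS3 and OAS2 cluster 0 passed by edgeR, DESeq2 or limma-voom, with values between −0.27 and 0.31 and a median of 0.13. DDX54, a nucleolar RNA helicase, was the highest (0.31, SE 0.14), and the phosphatase gene PTPN11 had 0.23 (SE 0.11). Of 8 tested neighbours of OASL 0 passed by any of these tools, with values between −0.03 and 0.12; SPPL3, an intramembrane protease, had 0.12 (SE 0.11). With the control library of 22 August left out, 1 neighbour of the cluster, DDX54, was called higher, in a fit that called 5.61% of all tested genes higher.

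**Figure D2:**
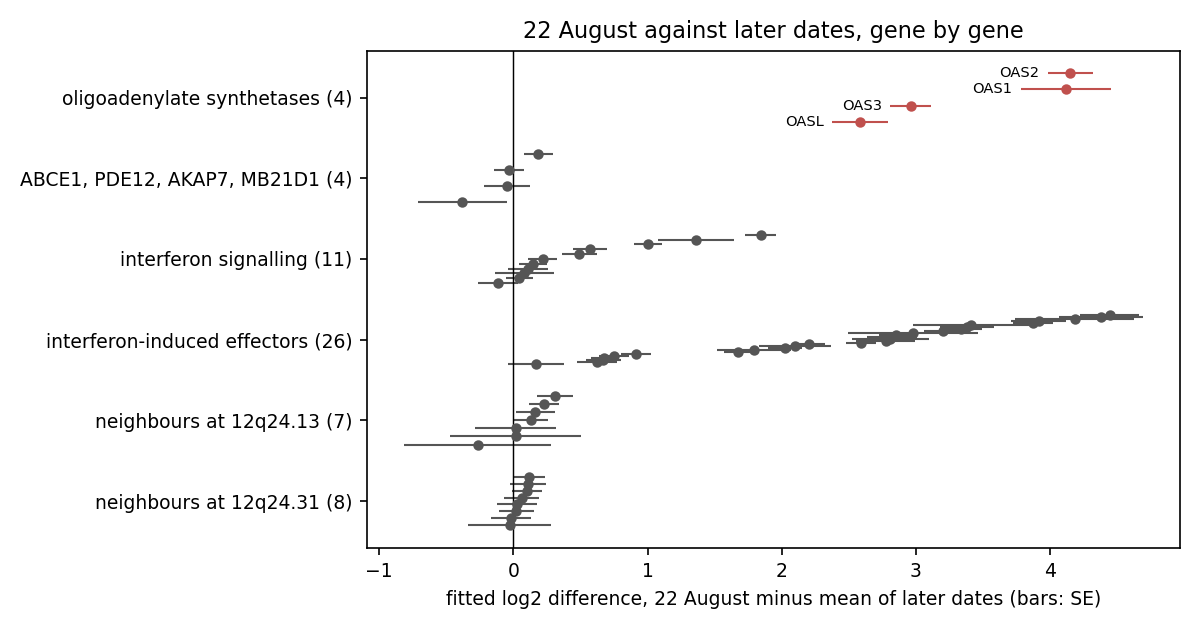
Fitted log2 difference of 22 August minus the mean of the later dates (horizontal axis) for genes of 6 lists, with the number of genes plotted in brackets and bars for the standard error. The 4 synthetases lie between 2.58 and 4.15, the 26 effectors between 0.17 and 4.44, and ABCE1, PDE12, AKAP7 and MB21D1 between −0.38 and 0.19; neighbours are the genes beside the cluster (upper of the lowest pair of lists) and beside OASL (lowest list).

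Between the later dates no synthetase passed the test. On 18 September against 5 September, OAS3 had a log2 difference of −0.46 (SE 0.19, edgeR adjusted p = 0.286), with the lower level on 18 September in both groups. OAS1 had 0.66 (SE 0.53, adjusted p = 0.544), OAS2 0.13 (SE 0.27) and OASL 0.01 (SE 0.30). Of the 4 genes 0 passed, where 2 of 16689 genes did (0.012%); OAS3 had an unadjusted p of 0.0419, and 0 of the 4 passed by limma-voom. DESeq2 gave no adjusted p for OASL and passed none of the other 3. The call depended on libraries left out: leaving out the 22 August mimic sample gave OAS3 −0.48 (adjusted p = 0.00709), and leaving out its control partner gave −0.47 (adjusted p = 0.00509), both past the threshold. Those fits called 18.5% and 19.8% of all tested genes, and the OAS3 difference itself stayed near −0.46. OAS1 passed without the mimic library of 5 September (1.86, adjusted p = 0.0106), in a fit that called 3.03% of genes.

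Within a date, the mimic library stood above its control for OAS2, OAS3 and OASL on all 3 dates, and OAS1 did not keep a direction. The share of all tested genes above 0 on all 3 dates was not computed, and this contrast was used to choose the members. Nothing is therefore read from the shared direction. The members are also not independent, with r between 0.92 and 0.99 over the 6 libraries. The ratio of mimic over control for OAS3 was 1.93, 1.36 and 1.18 in date order, which on the log2 scale is 0.95, 0.44 and 0.23, with exact 95% counting intervals of 0.89 to 1.01, 0.31 to 0.58 and 0.04 to 0.43. Each date has 1 library per group, so these intervals give the precision of the counting and no test of the mimic. For OAS2 the log2 ratios were 0.62 (0.42 to 0.82), 0.37 (−0.47 to 1.21) and 0.70 (−0.28 to 1.73). For OASL they were 0.25 (−0.04 to 0.54), 0.96 (0.28 to 1.67) and 0.33 (−0.48 to 1.16). For OAS1 they were 0.03 on 22 August (−0.16 to 0.22), 1.88 on 5 September (0.91 to 2.95) and −0.64 on 18 September (−1.51 to 0.19).

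**Figure D3:**
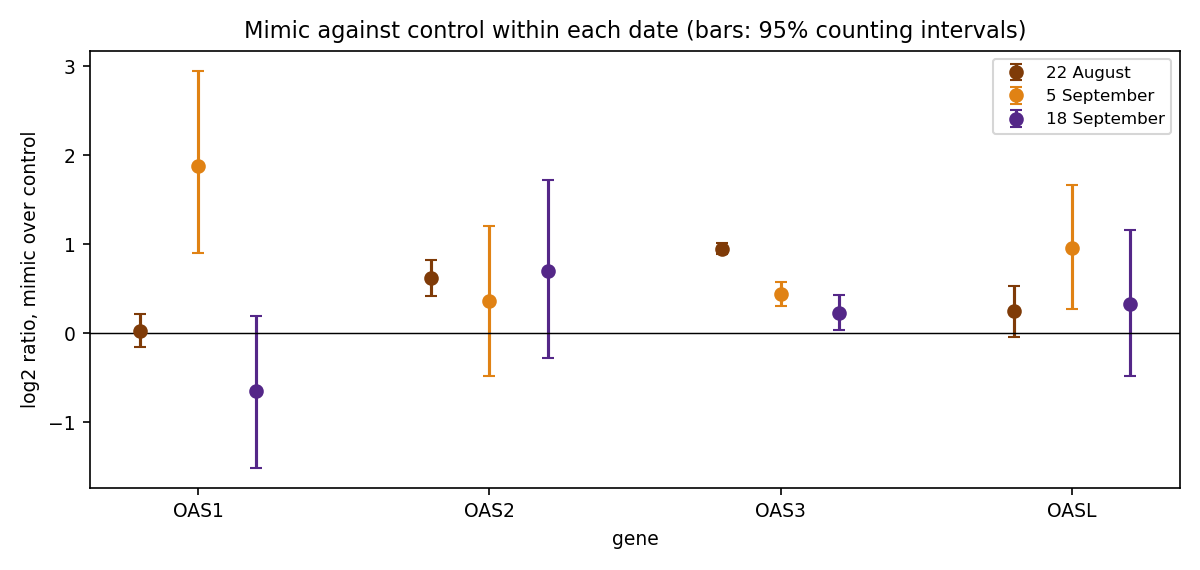
Log2 ratio of the mimic library over the control library of the same date (vertical axis) for the 4 synthetases, without a prior count, with bars for the exact 95% counting interval. OAS3 is above 0 on all 3 dates (0.95, 0.44 and 0.23), while OAS1 lies between −0.64 and 1.88.

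Over the 3 dates, the SD of each group exceeded the difference between the group means for OAS3. OAS3 averaged 104 ± 133 CPM in mimic libraries and 58.7 ± 64.5 CPM in control libraries (SD, n = 3 each), and the fitted log2 difference without a block was 0.83 (SE 0.84). With the date as a block OAS3 was 0.56 (SE 0.15), OAS2 0.57 (SE 0.18), OASL 0.47 (SE 0.22) and OAS1 0.25 (SE 0.36), so OAS3 was not the highest there. By limma-voom without a block OAS3 was the lowest, at 0.56, with OASL at 0.61, OAS1 at 0.65 and OAS2 at 0.67. With both libraries of 22 August left out OAS3 was 0.36 (SE 0.23). With both left out OAS1 was 0.38, OAS2 0.53 and OASL 0.66, so all 4 stayed positive. OAS2 had 0.63 (SE 1.09), OASL 0.37 (SE 0.74) and OAS1 0.08 (SE 1.10) in the fit without a block, and the family's median was 0.50 beside 0.0015 for all tested genes. Leaving out 1 library leaves its date in the other group only, so the date difference enters the value of the fit without a block. With the mimic library of 22 August left out all 4 were negative, from −2.45 for OAS1 to −0.91 for OASL, and with its control library left out they lay between 1.94 and 3.30. OAS1 and OASL were also negative with the control of 5 September left out (−0.51 and −0.10) or that of 18 September (−0.37 and −0.0019), and OAS2 was then 0.09 and 0.14 and OAS3 0.44 and 0.41. With the mimic library of 5 September left out OAS3 was 1.26 and OAS2 1.15, and with that of 18 September left out OAS3 was 1.31 and OAS2 1.12. Of 16233 genes tested by edgeR 0 passed between the mimics (0%), with 488 at an unadjusted p under 0.05, while limma-voom called 0 and DESeq2 called 5. Nothing is read from these counts about the synthetases, since this contrast was used to choose them. Of 25 tested effectors 0 passed between the mimics, with a median of 0.11. ABCE1, PDE12, AKAP7 and MB21D1 had values between −0.08 and 0.59, the highest in MB21D1 (SE 0.37).

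Set against its paralogs, OAS3 did not keep a sign. With a prior count of 2, its log2 ratio of mimic over control minus the mean ratio of OAS1, OAS2 and OASL was 0.66 on 22 August, −0.53 on 5 September and 0.12 on 18 September. The mean over dates was 0.08 with an SD of 0.60 (n = 3); the mean is smaller than that spread, and without 22 August it was −0.21. On 5 September OAS1 had the highest ratio of the family, against 12 counts in the control library. On 22 August gene length moved with the ratio: the median log2 ratio of mimic over control was 0.26 for 3603 tested genes with a model over 5000 bases, as OAS3 has, and −0.19 for 5918 genes with a model of up to 2500 bases, as OAS1 and OASL have. On 5 September these medians were −0.0084 and 0.04, and on 18 September 0.03 and −0.07. The part of gene length in the OAS3 ratio was not tested. Of all tested genes, 2.88% had a ratio at or above that of OAS3 on 22 August, 8.59% on 5 September and 16.2% on 18 September.

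The make-up of the family is given by library. OAS3 took 85.1, 89.2 and 86.1% of the family's counts with the mimic, against 78.4, 92.4 and 84.8% with the control, in date order. On 22 August its share was the higher with the mimic (Clopper-Pearson 95% interval 84.35 to 85.9%, against 77.1 to 79.6% with the control). On 5 September it was the higher with the control, at 87.1 to 91.0% with the mimic and 90.5 to 94.1% with the control, and on 18 September the intervals were 83.0 to 88.9% and 81.2 to 87.9%. The intervals cover counting error only, with reads taken as independent, and are no test between the mimics.

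Levels between genes were compared per length, as CPM per kilobase of the gene model. OAS3 had 38.3, 4.88 and 3.29 CPM per kb with the mimic, against 19.8, 3.59 and 2.80 CPM per kb with the control, and was the highest member in each library. OAS1 came next on 22 August, with 8.77 CPM per kb with the mimic and 8.59 with the control, while OAS2 (4.07 and 2.66) and OASL (3.97 and 3.35) changed places between the 2 libraries. On the later dates OAS2 was the lowest per kb in all 4 libraries, at 0.244 at most, and OAS1 (0.178 to 0.763) and OASL (0.425 to 0.828) overlapped. The ratio of OAS3 to OAS1 per kb was 4.37, 7.46 and 6.74 with the mimic, against 2.31, 20.2 and 3.67 with the control, in date order; the ratio of 20.2 rests on 12 counts of OAS1.

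**Figure D4:**
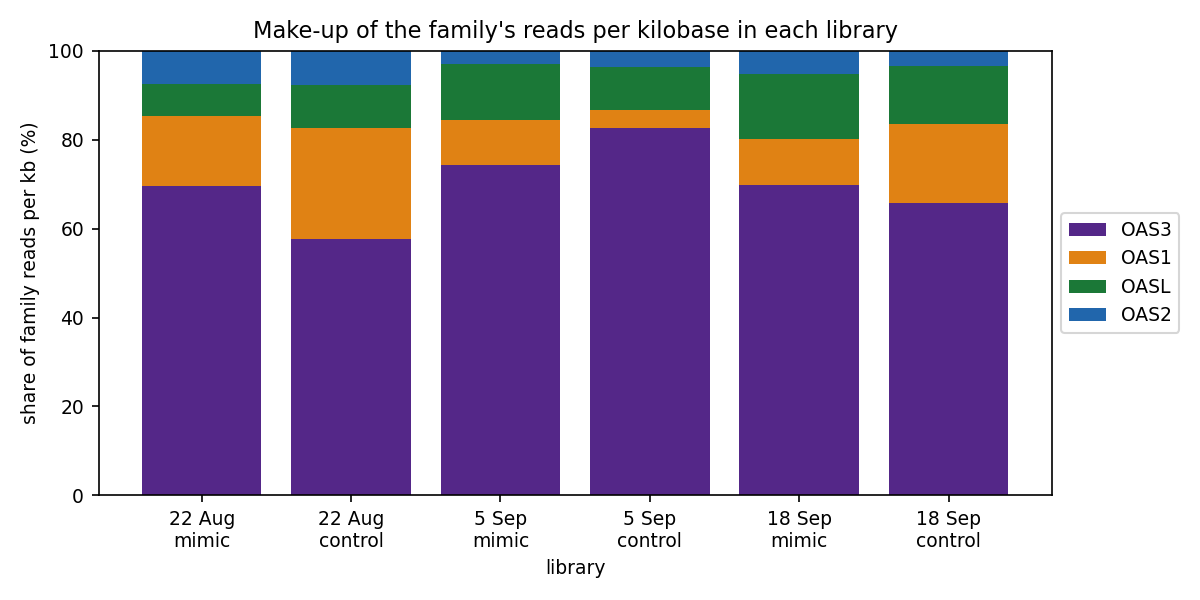
Share of each synthetase in the family's summed reads per kilobase (vertical axis, percent) in each library, by date with the mimic left of the control. OAS3 holds from 57.6% (control, 22 August) to 82.6% (control, 5 September), and OAS1 from 4.09 to 24.97%, its lowest and highest shares lying in those same 2 libraries.

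Likeness of pattern was measured as Pearson's r of log2 CPM over the 6 libraries, among 2909 tested genes outside the family whose values span at least 1 on the log2 scale. Among the genes most like OAS3 were DTX3L (r = 0.998), a ubiquitin ligase, and the helicase DDX60 (0.991). OAS2 was most like PARP9 (0.995), DDX60 (0.995) and DDX58 (0.994). OASL was most like PARP9 (0.997), RSAD2 (0.995), the antiviral enzyme viperin, and SP110 (0.994). OAS1 was most like BST2 (0.992), the virus-tethering protein tetherin, IFI44L (0.988) and S100A16 (0.986). Within the family r ran from 0.922 between OAS1 and OAS3 to 0.986 between OAS2 and OASL. All these values rest on the same 6 libraries, of which the 2 of 22 August stand apart, and are a description.

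Promoters were available for OAS1 and OAS3. Windows of 250 bases before to 50 after the start, from RefSeq (GRCh38.p14, plus strand), were searched on both strands for GAAANGAAA and GAAANNGAAA, paired GAAA repeats of the kind that interferon regulatory factors are known to bind. The windows lie at chr12:112906712-112907011 (OAS1) and chr12:112938224-112938523 (OAS3), in a build other than that of the counts, and are shown because all 4 members were high on the same date. Capitals mark the matches.
OAS1: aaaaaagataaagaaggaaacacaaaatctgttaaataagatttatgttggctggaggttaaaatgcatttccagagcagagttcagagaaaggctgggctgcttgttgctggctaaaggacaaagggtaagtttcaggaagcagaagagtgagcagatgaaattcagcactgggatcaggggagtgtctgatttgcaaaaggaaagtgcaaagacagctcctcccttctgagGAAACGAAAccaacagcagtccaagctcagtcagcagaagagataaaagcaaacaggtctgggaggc
OAS3: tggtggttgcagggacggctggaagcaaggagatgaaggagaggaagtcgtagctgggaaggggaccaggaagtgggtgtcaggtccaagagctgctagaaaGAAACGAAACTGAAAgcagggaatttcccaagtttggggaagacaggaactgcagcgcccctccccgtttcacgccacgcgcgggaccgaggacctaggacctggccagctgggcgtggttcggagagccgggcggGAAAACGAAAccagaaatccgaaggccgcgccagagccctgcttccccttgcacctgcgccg

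OAS1 had 1 match, 17 to 9 bases before the start. OAS3 had 3 matches, 2 of them overlapping between 148 and 134 bases before the start and 1 lying 12 to 3 bases before it. Over all 35116 promoter windows, 3.12% held GAAANGAAA, 3.57% held GAAANNGAAA and 6.40% held either. Of the 22 listed effector genes with a window 18 held either motif, against 0 of 3 for ABCE1, PDE12 and AKAP7. Among the other lists it was 1 of 7 for interferon signalling and 5 of 7 for interferons and chemokines. It was 1 of 4 for neighbours of the cluster and 1 of 6 for neighbours of OASL. For HEK293, leukocyte and intestinal or blood markers it was 0 of 4, 1 of 4 and 1 of 2. Differences between lists were not tested. A match is a description of these letters, and binding was not measured.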

How the data were processed

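RNA from Ago2 precipitates of 6 HEK293 libraries was analysed from the deposited table of read counts per gene, whose unit was read as raw counts because the values are whole numbers with unequal totals. Per the submitters' processing notes, STAR 2.5, HTSeq 0.6.1 and DESeq2 were used with hg19. All value columns were matched to samples by name, with 0 left over. The deposited table also gives the gene lengths and coordinates used here.

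The main test was the edgeR 4.0.16 quasi-likelihood F test (R 4.3.3) after TMM normalization and filterByExpr (min.count 10, min.total.count 15), with Benjamini-Hochberg adjustment over all tested genes and a threshold of 0.05. The mimic fit had no block. The date fit had date and mimic as terms. DESeq2 1.42.0 and limma-voom (limma 3.58.1) were alternatives, with other normalizations, no filter and each library left out in turn. CPM are TMM-scaled, and a standard error is the fold change on the log2 scale divided by √F. Intervals and figures used Python 3.11.15, scipy 1.17.1 and matplotlib 3.10.9. The code was tested on simulated data.

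The members and the gene lists were chosen with earlier results of these data known. Named genes were the members, the genes linked to 2-5A, up to 4 genes per other list with the lowest p by date and up to 2 by mimic, and the 3 genes most like each member; some of these are not reported here. Libraries of a date were paired because the labels give the date; their deviations from the group means correlated at 0.0467, 0.154 and 0.513 in date order. The labels do not state separate cultures, so p-values reflect only how these samples vary, and that variation may be technical.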

Additional observations from a re-analysis of the deposited data

Results flagged for a closer look

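OAS1, the short catalytic synthetase, differed in direction between dates. Its log2 ratio of mimic over control was 0.031 on 22 August, 1.88 on 5 September and −0.64 on 18 September. On 5 September the mimic library held 37 counts of OAS1 and the control library 12, whereas on 18 September the mimic library held 21 and the control library 32. The difference between dates was not tested, since each date has 1 library per group. OAS2, OAS3 and OASL had ratios above 0 on all 3 dates. The share of all tested genes with this was not computed, so nothing is read from it.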

How the results depend on the processing

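Depth limited OAS1, OAS2 and OASL on the later dates, where a library held 12 to 49 counts. The difference of 22 August from the later dates stayed positive for each synthetase in 13 alternatives and moved by less than the spread of its differences. OAS3 against its paralogs ran from −0.21 to 0.39 in 6 alternatives, positive in 5. Between the mimics edgeR called 0 genes with the replicate block, where OAS3 was 0.56, and 20 without the filter on low counts. DESeq2 called 5 genes without the block and 11 with it. With both libraries of 22 August left out, an alternative chosen after seeing the data, OAS3 was 0.36 and all 4 stayed positive. Leaving out 1 library in turn gave mimic differences of −2.45 to 2.93 for OAS1, −2.15 to 3.30 for OAS2, −1.09 to 2.28 for OAS3 and −0.91 to 1.94 for OASL. Genes called on 22 August were 56 in either direction, 240 without the filter, 118 by DESeq2, 88 without the mimic term and 58 to 1539 with 1 library left out. Genes called on 18 September against 5 September were 2, then 382 without the filter, 59 by DESeq2, 1 without the mimic term and 0 to 3456 with 1 library left out. In that contrast OASL was −0.018 without the filter and −0.0024 without the mimic term, and leaving out 1 library gave −0.31 to 0.39 for OASL, −0.17 to 1.86 for OAS1, −0.0196 to 0.24 for OAS2 and −0.70 to −0.24 for OAS3. A date left with 1 library was assumed to vary like the others. In the fit between the mimics without a block, leaving out 1 library leaves its date in 1 group only, so the date difference enters by construction; the cause of the other shifts was not tested.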
